A study of Mus musculus with 10 samples.

Results

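Mouse ESC lines that lack GYS1, the muscle isoform of glycogen synthase, were compared with lines that keep it, on the level of every protein-coding gene in bulk RNA. The GYS1-deficient group held 4 libraries. J1-GKO-1 and J1-GKO-2 came from the GYS1 knockout (GKO), and J1-DKO-1 and J1-DKO-2 from the double knockout of GYS1 and AMPK (DKO). The GYS1-intact group held the other 4, J1-WT-1 and J1-WT-2 from unedited naïve ESCs and J1-AKO-1 and J1-AKO-2 from the AMPK knockout (AKO). These 8 of the 10 libraries of the series were chosen by their sample labels alone, and the 2 libraries of primed wild-type ESCs (PJ1) entered only the filter on low values. All 8 came from the J1 line, a mouse ESC line. The methods describe naïve culture with LIF and the inhibitors PD0325901 and CHIR99021 (2i).

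Each group thus contained 2 lines with 2 libraries each, and the 2 groups carried the AMPK genotypes in the same proportion. According to the methods, Gys1 was edited with Cas9 and single colonies were picked. Prkaa1, which encodes the α1 catalytic subunit of AMPK, was instead edited with a plasmid set for homology-directed repair. AMPK knockout here means the edit of Prkaa1, and lines with AMPK are those without that edit. Neither the labels nor the methods say which colony a library came from, whether the libraries of a line were separate cultures, or whether DKO was derived from GKO. The p-values therefore measure the spread between these libraries, which may be technical, and the loss of GYS1 cannot be told apart from any other difference that GKO and DKO share as lines.

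Glycogen synthase adds glucose units from UDP-glucose to a growing glycogen chain, and phosphorylases release them again. AMPK is the energy-sensing kinase that rises in activity when ATP falls, and its β subunits carry a domain that binds glycogen. Naïve ESCs stand for the pre-implantation epiblast and depend on factors such as Nanog, Esrrb and Klf4, while primed ESCs stand for the epiblast after implantation.

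The edit in Gys1 lies at the start of exon 9 of 16 in transcript Gys1-201, all of it coding, at chr7:45094056-45094115 on the plus strand of GRCm39. The exon is shown because it defines the GYS1-deficient group. The capitals mark the 20 bases that the guide matches, and the next 3 bases are its PAM.
Gys1 exon 9: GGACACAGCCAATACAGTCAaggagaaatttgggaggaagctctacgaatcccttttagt
Gys1 mRNA itself was at 11.5, 10.8, 12.7 and 12.2 TPM in the GYS1-intact libraries (naïve, then AKO) and at 9.70, 9.98, 12.1 and 11.7 TPM in the GYS1-deficient ones (GKO, then DKO). TPM is an abundance per transcript length within a library, estimated by the authors with RSEM. The ranges overlapped, and the difference on the log2(TPM + 1) scale was -0.11 (SE 0.09, adjusted p = 0.356; every adjusted p here is limma's after the Benjamini-Hochberg correction). The mRNA level does not measure small indels, so it does not check the Gys1 label. Prkaa1 measured 15.5 and 16.6 TPM in the naïve libraries, 7.24 and 6.94 in AKO, 12.2 and 12.0 in GKO, and 2.30 and 2.04 in DKO. Every library labelled as AMPK knockout thus lay below every library with AMPK. Its change with GYS1 loss was -0.87 over the groups of 4 (adjusted p = 0.253), made of -0.38 between GKO and naïve ESCs and -1.35 between DKO and AKO. Prkaa2, which encodes the α2 subunit, rose from 2.48 ± 0.148 to 3.24 ± 0.0914 TPM (SD, n = 4) with no overlap between the groups. The change was 0.28 (SE 0.06, adjusted p = 0.00571). With the libraries of a line treated as a correlated block, its adjusted p was 0.114.

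The tables give no read counts, so the depth of a library is unknown. The listed TPM summed to 565209 to 578952 in the GYS1-intact libraries and to 517712 to 559117 in the GYS1-deficient ones, each of the latter below each of the former, and what part this has in the results was not tested. Between 10537 and 10832 genes reached 1 TPM in a library. The 8 defining markers of naïve ESCs all exceeded 1 TPM, and their summed level was 3485 to 3719 TPM in intact and 3575 to 4123 TPM in deficient libraries, against 713 to 763 TPM in primed ESCs. The 5 primed markers summed to 40.3 to 49.5 TPM and 48.6 to 68.8 TPM in the same 2 groups, against 378 to 429 TPM in primed ESCs. Markers of fibroblasts, primitive endoderm and 2-cell-like cells stayed under 10 TPM in sum in the 8 libraries. Those of fibroblasts reached at most 3.46 TPM in intact and 9.22 TPM in deficient libraries. Mesendoderm markers summed to 32.9 to 37.3 TPM in intact and 22.3 to 38.0 TPM in deficient libraries. In bulk RNA, fewer cells of a type and less RNA per cell cannot be told apart.

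The GYS1 grouping held more of the spread among the 8 libraries than the AMPK grouping. Of the summed squared deviation over 12060 tested genes, 58.5% lay between the GYS1 groups, 18.0% between the AMPK genotypes, 16.2% in their interaction and 7.33% between libraries of a line. On the first principal component, which held 59.5% of the variance, the intact libraries lay between -20.3 and -21.9, DKO at 15.4 and 15.7, and GKO at 26.6 and 26.3. The second component held 29.8%. On it, both GKO libraries lay at -18.3, and DKO lay on the positive side, at up to 24.5. The naïve and AKO libraries lay close together there, between -1.68 and -3.61. The second component thus separated the AMPK genotypes mainly among the GYS1-deficient lines. A gene was tested if it reached 1 TPM in 2 of the 10 libraries, and it was called at an adjusted p under 0.05. In the comparison of 4 against 4, 4906 genes were called (40.7% of those tested), of which 2328 were higher (19.3%) and 2578 lower (21.4%) in GYS1-deficient libraries. The groups did not overlap at 5119 genes (42.4%), 2453 higher (20.3%) and 2666 lower (22.1%). Of the genes tested, 270 reached the filter through GYS1-deficient libraries alone and 115 through intact ones alone, so these could hardly be called in the other direction.

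The same question was then asked within each AMPK genotype. GKO differed from naïve ESCs at 7286 genes (60.4%), 3513 higher (29.1%) and 3773 lower (31.3%). DKO differed from AKO at 6659 (55.2%), 3249 higher (26.9%) and 3410 lower (28.3%). These comparisons share no library. Both called 4681 genes, 3991 in the same direction and 690 in opposite directions. Genes called in both comparisons and in the comparison of 4 against 4, in a single direction, are described as changed alike. There were 3867 of them (32.1% of genes tested), 1856 higher (15.4%) and 2011 lower (16.7%). Across the 12060 genes, which are not independent, the changes in the 2 comparisons had a Pearson r of 0.568. The changes were mostly small, with a median size of 0.44 on the log2 scale for the genes changed alike and 0.20 for all genes tested. A change of at least 1 in both comparisons was seen for 131 genes, 74 higher and 57 lower. The number of called genes rests on treating libraries of a line as separate samples. With the line as a correlated block (correlation 0.732) 2308 genes were called. With a single mean for each line, 2 lines against 2, only Eif2s3y was called, while 3225 genes had an unadjusted p under 0.05 in limma. Eif2s3y is Y-linked, was listed at 0 in all intact libraries and reached the filter through GKO and DKO alone. Its direction was thus fixed by the filter, and nothing is read from that call.

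**Figure D1:**
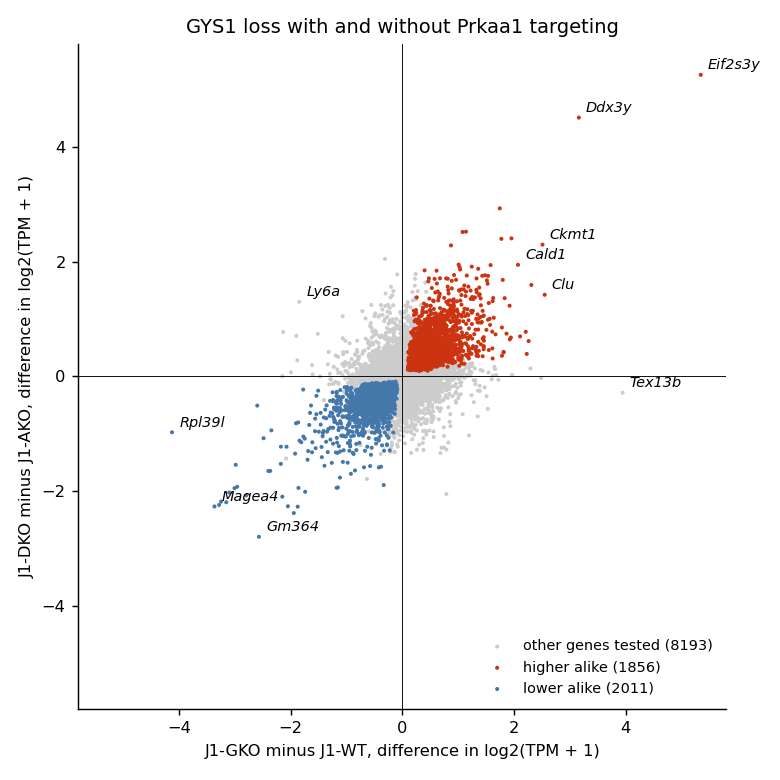
Change of each tested gene with GYS1 loss in ESCs with AMPK (horizontal axis, GKO minus naïve) and in AMPK knockout ESCs (vertical axis, DKO minus AKO), both as differences in log2(TPM + 1). Each point is 1 gene; the 1856 genes higher alike lie in the upper right and the 2011 lower alike in the lower left, while Tex13b and Ly6a are examples that did not change alike.

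The genes with the largest rises in both AMPK backgrounds included a mitochondrial enzyme, cytoskeletal proteins, a growth factor feedback inhibitor and Y-linked genes. Ckmt1, the ubiquitous mitochondrial creatine kinase (GRCm39 chr2:121188195-121195706), was at 2.03, 2.13, 1.88 and 2.09 TPM in the intact libraries, and at 16.5, 16.6, 13.0 and 14.4 TPM in the deficient ones. Its change was 2.41 on the log2 scale (SE 0.09, adjusted p = 3.38e-06), 2.51 in GKO against naïve ESCs and 2.30 in DKO against AKO. Cald1, which encodes the actin-binding protein caldesmon (chr6:34575435-34752408), was at 5.12, 5.57, 6.41 and 5.94 TPM in the intact and 26.1, 25.2, 27.0 and 26.3 TPM in the deficient libraries. Its 4 deficient values lay within 2 TPM of each other, and the rise was 2.01 (SE 0.07, adjusted p = 3.03e-06). Stmn3, a microtubule-destabilizing stathmin, was at 2.91, 3.42, 2.35 and 1.96 TPM against 14.7, 15.6, 14.3 and 17.2 TPM, a rise of 2.18 (SE 0.13, adjusted p = 2.67e-05). St14, the membrane protease matriptase, rose by 1.95, more in GKO (17.6 and 17.2 TPM) than in DKO (11.1 and 11.6 TPM), from 2.90 ± 0.252 TPM in intact libraries (SD, n = 4). Spry2, a feedback inhibitor of receptor tyrosine kinase signalling, was at 24.2, 22.3, 16.1 and 16.6 TPM and at 70.6, 63.0, 59.0 and 56.8 TPM, a rise of 1.62 (SE 0.14, adjusted p = 8.51e-05). For each of these genes the lowest deficient library exceeded the highest intact one, as the rule for naming them required.

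The other rises selected by the same rule included Epp13 (2.09), Clu (1.99), Trim35 (1.65), Phlda2 (1.60), Nynrin (1.57), Ap1m2 and Zfp365 (1.47). Clu encodes the extracellular chaperone clusterin, Ap1m2 the epithelial μ subunit of the AP-1 clathrin adaptor, and Phlda2 is an imprinted gene known for restraining placental growth. Clu stood at 1.59 to 2.30 TPM in the intact libraries, 15.1 and 15.0 TPM in GKO and 6.76 and 7.44 TPM in DKO, so the size of its rise differed between the AMPK backgrounds (difference 1.13, adjusted p = 0.000835). Nynrin was level between the backgrounds, at 3.63 to 4.02 TPM in intact libraries and at 13.6, 13.1, 13.2 and 14.1 TPM in deficient ones. Of the 15 rises named, 4 lie on chromosome 14 (Trim35, Nynrin, Spry2 and Clu) and 2 on the Y chromosome.

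**Figure D2:**
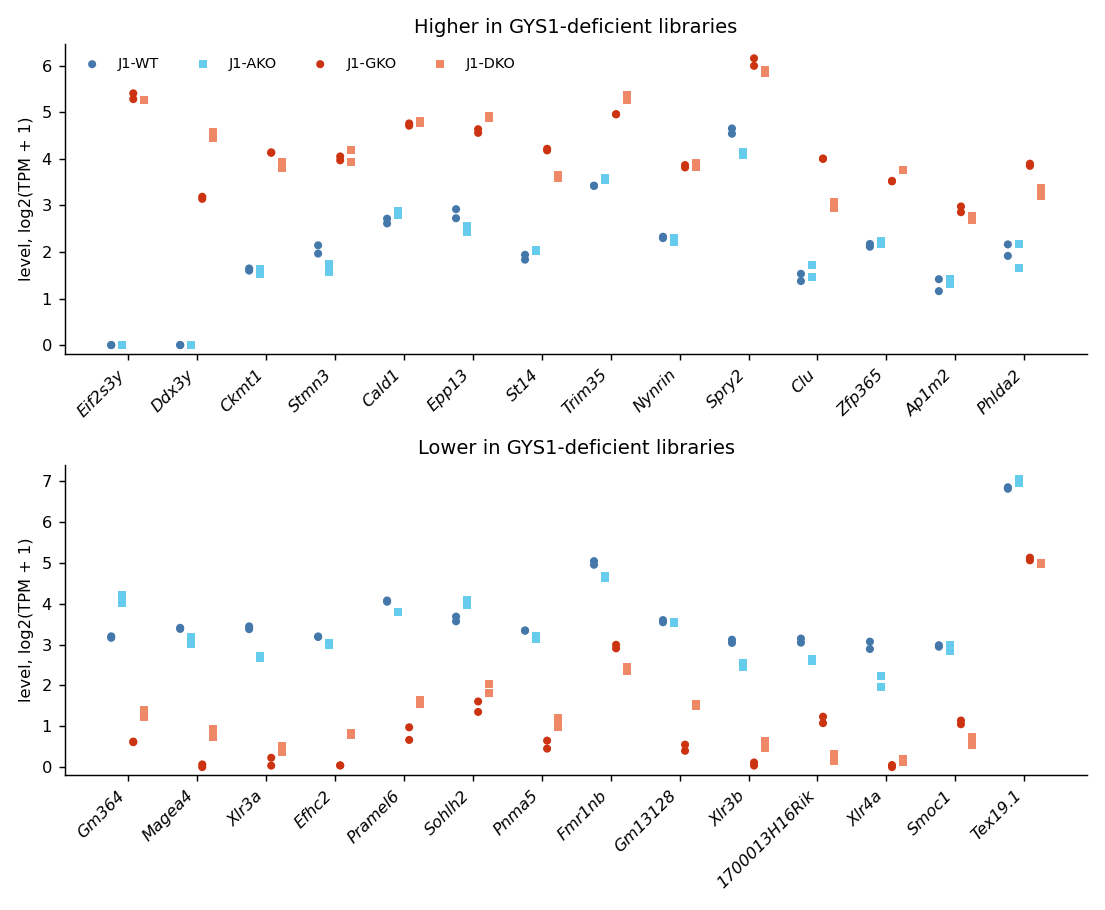
Level of the largest rises (upper panel) and largest falls (lower panel) among genes changed alike, without 1 gene of each that is not reported here, as log2(TPM + 1) in each of the 8 libraries. Each point is 1 library, circles are lines with AMPK and squares lines labelled as AMPK knockout; in every gene the GYS1-deficient libraries (red and orange) lie apart from the GYS1-intact ones (blue), and Eif2s3y and Ddx3y are listed at 0 in all intact libraries.

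The largest falls included X-linked and germline genes. Tex19.1, a gene of ESCs and the germline that acts in the control of retrotransposons (chr11:121036969-121039145), was at 111, 114, 124 and 131 TPM and at 33.9, 32.4, 30.6 and 31.0 TPM, a change of -1.88 (SE 0.06, adjusted p = 2.99e-06). Sohlh2, a helix-loop-helix factor of spermatogonia and oocytes (chr3:55089265-55117382), was at 10.9, 11.8, 15.9 and 14.6 TPM and at 2.05, 1.55, 2.50 and 3.12 TPM, a change of -2.12 (SE 0.17, adjusted p = 7.20e-05). In both genes the groups stood well apart while GKO and DKO were close to each other. Pramel6, a PRAME-family gene of the preimplantation embryo, went from 15.5, 15.9, 12.8 and 12.8 TPM to 0.585, 0.964, 2.14 and 1.94 TPM (-2.71, SE 0.22, adjusted p = 7.41e-05). Smoc1, a secreted calcium-binding protein, fell by 2.07, and Gm13128 on chromosome 4 changed by -2.56.

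Of the 15 falls named, 9 lie on the X chromosome. Magea4, a member of the MAGE family of testis antigens (chrX:71265623-71266570), was at 9.62, 9.43, 7.11 and 8.06 TPM in intact libraries, at 0 and 0.0460 TPM in GKO and at 0.898 and 0.665 TPM in DKO. Xlr3a, Xlr3b and Xlr4a, lymphocyte-regulated genes in a cluster of similar copies, changed by -2.76, -2.48 and -2.44, from 7.54, 6.05 and 5.09 TPM on average in the intact libraries to 0.231, 0.258 and 0.0673 TPM. Efhc2 (-2.67), Pnma5 (-2.43), Fmr1nb (-2.16), Gm364 (-2.68) and 1700013H16Rik (-2.16) were the other X-linked falls. Of these 9, Magea4, Efhc2, Pnma5, Xlr3b and Xlr4a reached the filter on TPM through intact libraries alone, so their direction was fixed by the filter. Reads of Pramel6, Gm13128, Magea4 and the Xlr genes can match similar copies, so how RSEM divided them is uncertain.

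Promoter sequences were available from RefSeq for 48 of the 57 genes that were lower by at least 1 in both backgrounds, and for 80.2% of all genes tested, over the 250 bases before the first listed start. The median number of CpG dinucleotides was 7 in the former (quartiles 3.75 and 15) and 16 in the latter (quartiles 10 and 23). Fewer than 5 were present in 35.4% of the former and in 8.67% of all. Among the 34 of those genes that have a promoter and do not lie on X, the median was 7.5. Low numbers were not particular to the falls. The genes higher by at least 1 in both backgrounds had a median of 11, with 18.6% under 5. All genes lower alike, whatever the size of their change, had a median of 17, with 6.59% under 5. This is a description of sets chosen by their change, with no test. The letters CACGTG, an E-box that reads the same on both strands, were present in 6.25% of the 48 promoters of large falls and 8.74% of all. The promoters of 4 falls show the range, Tex19.1 and Sohlh2 with 15 and 14 CpG, and Pramel6 and Magea4 with 2 and 0. The capitals mark CG, the sequences run 5′ to 3′ along each gene's strand, and the coordinates are those of GRCm38.p6.
Tex19.1 (chr11:121145893-121146142, plus strand): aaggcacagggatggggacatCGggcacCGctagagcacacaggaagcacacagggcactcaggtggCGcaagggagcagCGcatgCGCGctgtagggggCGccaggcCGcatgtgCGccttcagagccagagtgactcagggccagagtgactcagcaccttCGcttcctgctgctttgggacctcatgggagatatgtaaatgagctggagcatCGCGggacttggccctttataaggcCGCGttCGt
Sohlh2 (chr3:55181794-55182043, plus strand): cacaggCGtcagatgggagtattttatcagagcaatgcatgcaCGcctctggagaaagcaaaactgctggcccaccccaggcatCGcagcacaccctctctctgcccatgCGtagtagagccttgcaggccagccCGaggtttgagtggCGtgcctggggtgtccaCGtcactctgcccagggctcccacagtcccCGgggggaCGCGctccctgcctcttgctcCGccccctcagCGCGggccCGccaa
Pramel6 (chr2:87506315-87506564, plus strand): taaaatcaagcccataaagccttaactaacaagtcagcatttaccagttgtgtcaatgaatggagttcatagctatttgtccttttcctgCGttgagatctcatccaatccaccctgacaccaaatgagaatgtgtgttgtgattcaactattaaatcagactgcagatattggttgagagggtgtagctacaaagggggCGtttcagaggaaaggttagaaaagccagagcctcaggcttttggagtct
Magea4 (chrX:72221767-72222016, plus strand): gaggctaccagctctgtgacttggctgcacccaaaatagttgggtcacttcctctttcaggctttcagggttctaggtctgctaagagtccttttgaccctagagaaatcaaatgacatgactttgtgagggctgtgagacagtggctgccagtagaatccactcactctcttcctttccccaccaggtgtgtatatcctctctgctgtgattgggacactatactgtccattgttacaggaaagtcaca

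Y-linked genes were detected in GKO and DKO and listed at 0 in the other lines. Eif2s3y, the Y-linked copy of the γ subunit of initiation factor eIF2, was listed at 0 in all 4 intact libraries and in both primed libraries. It was at 41.5 and 38.0 TPM in GKO and at 37.3 and 37.4 TPM in DKO. Ddx3y, a Y-linked RNA helicase, was likewise listed at 0 in those 6 libraries, and stood at 8.11 and 7.83 TPM in GKO and 22.9 and 20.9 TPM in DKO. Uty was at 2.36 and 2.35 TPM in GKO and 7.05 and 6.24 TPM in DKO, and Uba1y at 2.88 and 2.73 TPM in GKO and 0.557 and 0.574 TPM in DKO, both listed at 0 elsewhere. These 4 of the 9 Y-linked genes listed reached the filter on TPM through GKO and DKO alone, so their direction was fixed by the filter and no count of calls is read from them. Of 7 X-linked partners of Y-linked genes, 4 were lower and 0 higher, with a median of -0.23, beside 167 lower of the 444 genes tested on X. With the line as a correlated block 3 of these falls remained. Uba1, the ubiquitin-activating enzyme, fell by 0.57 (306 to 314 TPM in intact, 188 to 229 TPM in deficient libraries), Kdm6a by 0.51 and Ddx3x by 0.34. All 3 lost their call once each chromosome was centred on its median (adjusted p = 0.0598, 0.182 and 0.269, limma).

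Genes also moved together by chromosome, in both AMPK backgrounds. On chromosome 14, 285 of 406 tested genes were higher and 1 was lower, with a median change of 0.43 (0.47 in GKO against naïve ESCs, 0.38 in DKO against AKO). On chromosome 19, 250 of 408 were lower and 19 higher, with a median of -0.33 (-0.40 and -0.27). Chromosome 15 had 211 lower and 55 higher of 478 (median -0.18), the X chromosome 167 lower and 34 higher of 444 (median -0.16), and chromosome 8 183 higher and 70 lower of 668 (median 0.09). The median change of all genes tested was -0.01. Outside chromosomes 14, 15, 19, X and Y, 3880 of 10320 genes were called (37.6%) and 2976 changed alike (28.8%), 1512 higher and 1464 lower. No measurement of chromosome number is given with these RNA data, and their part in each gene's change was not tested.

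**Figure D3:**
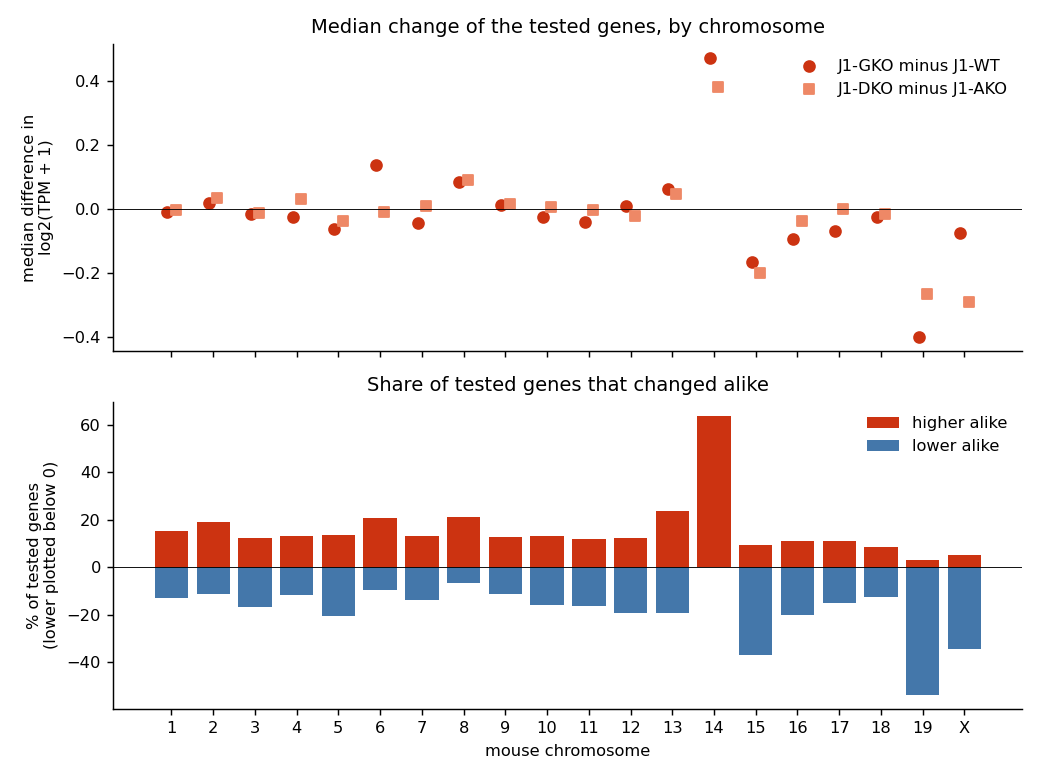
Median change of the tested genes of each chromosome (upper panel, difference in log2(TPM + 1)) in GKO minus naïve and DKO minus AKO, and share of its tested genes that changed alike (lower panel, %, lower plotted below 0). Chromosome Y, with 4 tested genes, is not drawn; of those drawn, chromosome 14 is the highest in both comparisons (0.47 and 0.38), chromosome 19 is the lowest in GKO minus naïve (-0.40) and chromosome X in DKO minus AKO (-0.29).

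Genes of naïve pluripotency were called higher more often than lower. Of 25 tested, 10 were higher and 3 lower in deficient libraries, beside 19.3% and 21.4% of all genes, with a median of 0.11. Klf4 was at 121, 113, 116 and 112 TPM in intact and 152, 147, 142 and 151 TPM in deficient libraries (0.35, SE 0.04, adjusted p = 0.000246). Esrrb, an orphan nuclear receptor of the naïve network, was at 188 ± 10.8 and 236 ± 4.58 TPM (0.33, adjusted p = 0.000814), and Nr0b1 rose by 0.48, Sall4 by 0.51 and Dppa3 by 1.03. In none of these 5 did the groups overlap. Nanog changed by 0.15, from 443 ± 12.1 to 491 ± 29.9 TPM (SD, n = 4), with overlapping groups and an adjusted p of 0.0456, a call that 13 alternatives lost. Zfp42 (-0.04, adjusted p = 0.379), Klf2 (0.11, adjusted p = 0.308) and Pou5f1 (-0.09, adjusted p = 0.229) did not pass. With the line as a correlated block, 7 of the rises and none of the falls remained, and Nr0b1 lost its call (adjusted p = 0.0942).

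Genes of formative and primed pluripotency were called at shares near those of all genes. Of 23 tested, 4 were higher and 5 lower, beside 19.3% and 21.4% of all genes, with a median of 0.00, and 2 higher and 5 lower remained with the line as a correlated block. Lefty1 and Lefty2 encode secreted inhibitors of Nodal. Lefty2 was at 238, 225, 292 and 264 TPM in intact and 97.1, 94.6, 96.2 and 97.9 TPM in deficient libraries (-1.39, SE 0.08, adjusted p = 2.31e-05). Lefty1 was at 21.8 ± 2.02 TPM in intact libraries (SD, n = 4) and at 6.90, 6.88, 7.60 and 9.21 TPM in deficient ones (-1.40, SE 0.10, adjusted p = 5.74e-05). Both genes fell without overlap, while Nodal itself, looked up after these values were seen, changed by 0.08 (adjusted p = 0.482). Sox11, a neural factor, fell by 1.23, from 5.03 ± 0.574 to 1.61 ± 0.629 TPM. Otx2, a factor of the exit from naïve pluripotency, was at 5.28 and 6.09 TPM in GKO but 2.39 and 2.98 TPM in DKO, against 5.71 to 6.51 TPM in intact libraries, so it did not change alike. Fgf5 did not reach 1 TPM in any of the 8 libraries. Among mesendoderm genes, 1 of 8 was lower (Evx1, -0.51) and 0 were higher, beside 21.4% and 19.3% of all genes, and this call was lost with the line as a correlated block (adjusted p = 0.223). Eomes changed by -0.16 (adjusted p = 0.0676) and T by 0.26 in GKO against naïve ESCs but by -1.28 in DKO against AKO.

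Trophectoderm genes were called in 1 direction, at low levels. Of 10 tested, 5 were higher and 0 lower, beside 19.3% and 21.4% of all genes, with a median of 0.42, and 3 of the rises remained with the line as a correlated block. These counts include Gata2, whose direction was fixed by the filter. On chromosomes 14, 15, 19, X or Y lie 2 of the 5 rises. Cdx2, a caudal factor of trophectoderm, was at 2.57, 2.66, 1.93 and 1.97 TPM in intact and 6.62, 7.27, 6.73 and 6.86 TPM in deficient libraries (1.27, SE 0.09, adjusted p = 5.74e-05). Gata2 was at 0.516, 0.663, 0.792 and 0.304 TPM and at 4.67, 4.39, 3.19 and 4.76 TPM. It reached the filter on TPM through the deficient libraries alone, so its direction was fixed by the filter and its test is not given. The keratin gene Krt8 rose by 0.72. The groups did not overlap in Cdx2 and Krt8. Of the 5 defining trophectoderm markers, 2 reached 1 TPM in any of the 8 libraries, and their summed level was at most 3.60 TPM in intact and 7.45 to 8.43 TPM in deficient libraries, most of it Cdx2. Their part in the list's calls was not tested.

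p53 target genes were mostly higher. Of 18 tested, 12 were higher and 1 lower, beside 19.3% and 21.4% of all genes, and the median was 0.66 (0.54 in GKO against naïve ESCs, 0.71 in DKO against AKO). With the line as a correlated block, 9 were higher and 1 lower, and 1 of the 12 lies on chromosome 14, 15, 19, X or Y. Phlda3, an inhibitor of Akt, was at 29.1, 31.2, 29.5 and 30.0 TPM in intact and 72.3, 72.3, 63.2 and 70.8 TPM in deficient libraries (1.19, SE 0.05, adjusted p = 1.03e-05). Btg2, an antiproliferative gene, was at 11.8, 12.6, 14.6 and 14.5 TPM and at 29.8, 31.8, 36.8 and 40.5 TPM (1.31, SE 0.11, adjusted p = 8.09e-05). Perp, a desmosomal protein, was at 3.23 to 4.66 TPM in intact libraries and at 10.4, 10.4, 14.5 and 14.6 TPM in deficient ones (1.46, SE 0.14, adjusted p = 0.00015). The groups did not overlap in any of the 3. The member that fell was Cdkn1a, the cell cycle inhibitor p21, with -0.47 (adjusted p = 0.00136), named after its values were seen because it was the exception.

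ATF4 target genes, which serve amino acid synthesis and transport, were mostly lower. Of 21 tested, 12 were lower and 3 higher, beside 21.4% and 19.3% of all genes, with a median of -0.37 (-0.22 in GKO against naïve ESCs, -0.56 in DKO against AKO), and with the line as a correlated block 10 were lower and 2 higher. Psat1, an enzyme of serine synthesis, was at 319.6, 325, 353 and 342 TPM in intact libraries and at 183, 182, 144 and 140.1 TPM in deficient ones (-1.05, SE 0.10, adjusted p = 0.000117). Its locus is on chromosome 19. Chac1, a glutathione-degrading enzyme, was at 8.39, 8.84, 13.2 and 11.6 TPM and at 3.13, 3.77, 3.16 and 2.74 TPM (-1.44, SE 0.15, adjusted p = 0.000181). Ddit4, an inhibitor of mTORC1, moved the other way (1.13, adjusted p = 0.00472). NRF2 target genes of the antioxidant response were also mostly lower, 10 of 15 against 2 higher, beside 21.4% and 19.3% of all genes, with a median of -0.29. Gclm, a subunit of the enzyme that limits glutathione synthesis, fell from 75.6 ± 3.83 to 50.3 ± 3.63 TPM (SD, n = 4; -0.58, adjusted p = 0.000204), Sqstm1 by 0.66 and Gstm1 by 0.53. With the line as a correlated block, 9 of the falls and none of the rises remained.

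Of 19 germline genes, 7 were lower and 1 higher, beside 21.4% and 19.3% of all genes, with a median of -0.35. The higher one was Stk31 (0.41, adjusted p = 0.0338), named after its values were seen. Through the filter, 3 of the 19 could be tested for their intact libraries alone and 1 for its deficient ones alone. Beside Sohlh2 and Tex19.1, Dazl, an RNA-binding protein of germ cells, fell from 7.59 ± 0.586 to 3.34 ± 0.0639 TPM (-0.98, SE 0.07, adjusted p = 4.68e-05). Under the correlated block the 7 falls remained and the rise did not, and none of these calls lies on chromosomes 14, 15, 19, X or Y. X-linked multicopy families, which include the Xlr, Mage and Rhox genes, had 10 of 12 tested lower and 0 higher, and the 10 falls remained with the line as a correlated block. However, 8 of the 12 reached the filter on TPM through GYS1-intact libraries alone, which fixed their direction, so nothing is read from this count, and 15 of the 27 listed were not tested. Of 22 imprinted genes, 5 were higher and 9 lower, beside 19.3% and 21.4% of all genes, with a median of 0.01, and 2 higher and 8 lower remained with the line as a correlated block. Phlda2 rose by 1.60, while Nnat fell by 1.15 and Mest by 1.00. Mest was at 189, 194, 184 and 189 TPM in intact and 112, 104, 80.5 and 83.1 TPM in deficient libraries. Of 12 DNA methylation genes, 1 was higher (Tet2, 0.37) and 2 were lower, among them Mbd3 (-0.45), below the 40.7% called among all genes. Under the correlated block the falls remained and Tet2 lost its call (adjusted p = 0.0505).

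Basement membrane and integrin genes were higher more often than lower, 8 against 2 of 18, beside 19.3% and 21.4% of all genes, with a median of 0.17, and the 8 rises remained with the line as a correlated block. Through the filter, 1 of the 18 could be tested for its deficient libraries alone. Nid1, the basement membrane linker nidogen, was at 20.0, 20.5, 18.6 and 18.4 TPM in intact and 34.9, 35.1, 43.1 and 41.5 TPM in deficient libraries (0.95, SE 0.08, adjusted p = 8.48e-05). Itga3, the α subunit of a laminin receptor, rose by 1.29 and Itgb5 by 1.23. Epithelial and mesenchymal adhesion genes had 6 higher and 1 lower of 15, beside the same shares, with a median of 0.32, and 3 of these rises and the fall remained with the line as a correlated block. Twist1, a mesenchymal factor, was the lower one (-1.01). Epcam, called in the comparison of 4 against 4 (0.91, adjusted p = 0.0426), was at 24.7 and 25.8 TPM in GKO but 11.4 and 9.72 TPM in DKO, against 7.18 to 9.68 TPM in intact libraries, so it did not change alike.

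**Figure D4:**
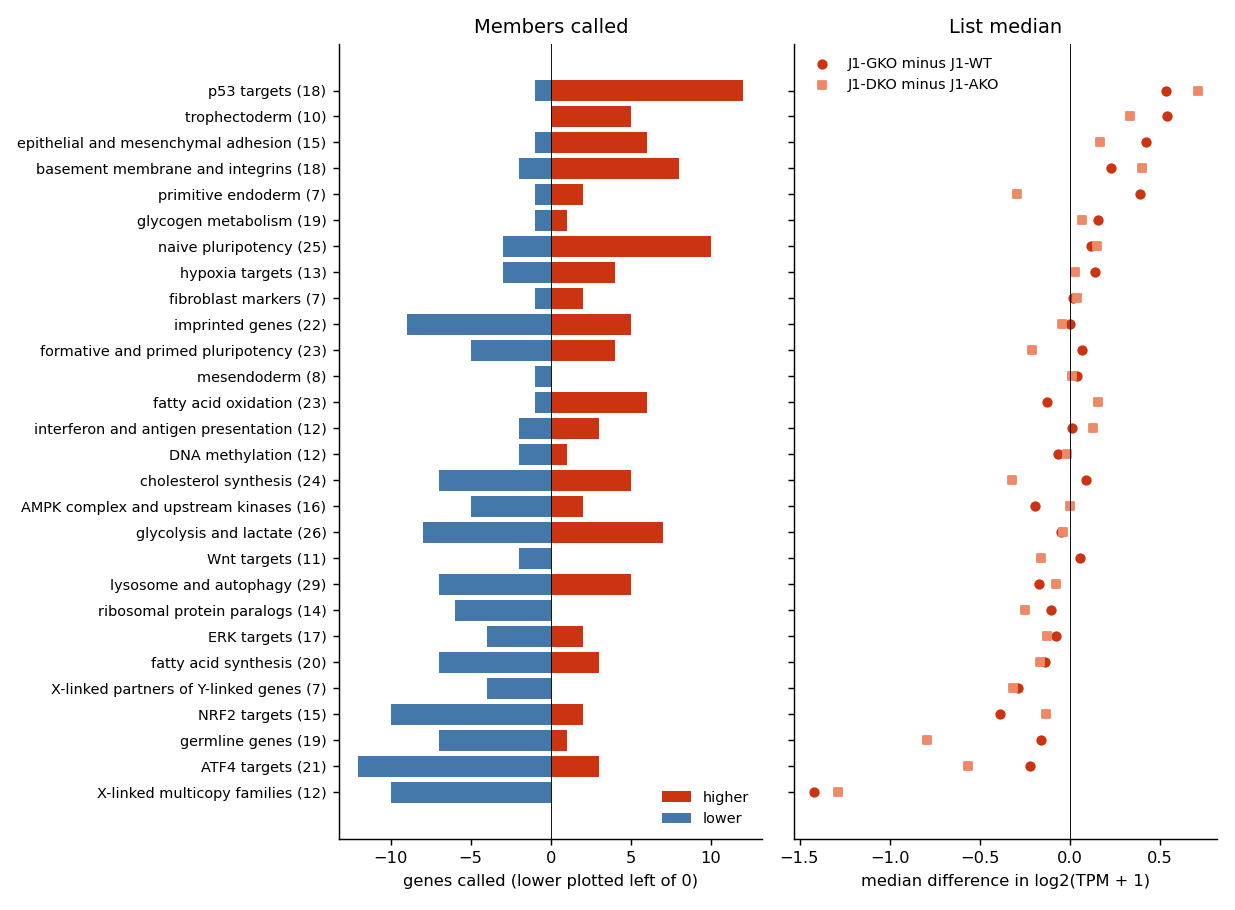
Members of each gene list called higher or lower in GYS1-deficient libraries (left panel, number of genes, lower plotted left of 0; tested members in parentheses) and the median change of the list in GKO minus naïve and DKO minus AKO (right panel, difference in log2(TPM + 1)). Lists with at least 7 tested members are drawn. Among all genes tested, 19.3% were called higher and 21.4% lower. The p53 targets (12 higher, 1 lower of 18) stand near the top and X-linked multicopy families (0 higher, 10 lower of 12) at the bottom. Of the latter 12, 8 reached the filter on TPM through GYS1-intact libraries alone, so nothing is read from their count.

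Few genes of the pathway that the edit targets were called. Of 19 tested genes of glycogen metabolism, 1 was higher and 1 lower, against 40.7% called among all genes. Pygb, the brain isoform of glycogen phosphorylase, was at 3.86, 3.82, 3.03 and 2.96 TPM in intact and 5.55, 5.11, 4.67 and 4.87 TPM in deficient libraries (0.46, SE 0.09, adjusted p = 0.00523). Nhlrc1, the ubiquitin ligase malin that acts on glycogen-bound proteins, was at 2.54 ± 0.156 TPM (SD, n = 4) in intact libraries and at 0.519, 0.628, 1.33 and 1.34 TPM in deficient ones (-0.88, SE 0.15, adjusted p = 0.0022). The groups did not overlap in either gene. Among 16 genes of the AMPK complex and its upstream kinases, 2 were higher and 5 lower, beside 19.3% and 21.4% of all genes. The 7 called of 16 are near the 40.7% called among all genes. Camkk2, a kinase that activates AMPK, fell by 0.41 (16.7 ± 1.49 to 12.4 ± 1.96 TPM, SD, n = 4), Camkk1 fell by 0.36, and Stradb, a partner of the kinase LKB1, rose by 0.62. With the line as a correlated block 2 of the falls and none of the rises remained, and Camkk2 was among those that lost their call.

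Lipid genes were called in both directions. Of 20 fatty acid synthesis genes, 3 were higher and 7 lower (median -0.21), beside 19.3% and 21.4% of all genes, and 1 higher and 5 lower remained with the line as a correlated block. Of 23 fatty acid oxidation genes, 6 were higher and 1 lower (median -0.04), beside the same shares of all genes, and 3 higher remained with that block. The 7 called of 23 are a smaller share than the 40.7% called among all genes. The median of the oxidation genes was -0.12 in GKO against naïve ESCs and 0.15 in DKO against AKO. Scd2, a stearoyl-CoA desaturase on chromosome 19, was at 358, 352, 378 and 376 TPM in intact and 262, 281, 185 and 182 TPM in deficient libraries (-0.71, SE 0.14, adjusted p = 0.00479). Me1, which supplies NADPH for lipid synthesis, fell by 0.70, from 38.1 ± 1.22 to 23.3 ± 4.27 TPM, and Oxsm on chromosome 14 rose by 0.73. Scd2 and Oxsm lost their call when each chromosome was centred on its median (adjusted p = 0.107 and 0.0638). Acaca (-0.11, adjusted p = 0.296) and Fasn (-0.17, adjusted p = 0.0515), the carboxylase and the synthase of the pathway, did not pass. Cpt1c, a carnitine palmitoyltransferase of the endoplasmic reticulum, was at 5.42 to 6.07 TPM in intact libraries, 7.87 and 7.87 TPM in GKO and 15.4 and 14.9 TPM in DKO (0.83, adjusted p = 0.0157), and Eci2 rose by 0.63 and Acaa2 by 0.59. Cholesterol synthesis genes had 5 higher and 7 lower of 24, near the shares of all genes (19.3% and 21.4%), and 3 of each remained with the line as a correlated block. The falls of Nsdhl (-0.84) and Ebp (-0.81) on X and Tm7sf2 (-0.70) on chromosome 19 were the largest among those called. Tm7sf2 lost its call when each chromosome was centred on its median (adjusted p = 0.0599). On chromosomes 14, 15, 19, X or Y lie 4 of the 7 falls and 1 of the 5 rises.

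Of 26 genes of glycolysis and lactate, 7 were higher and 8 lower (median -0.10), beside 19.3% and 21.4% of all genes, and 2 higher and 5 lower remained with the line as a correlated block. Ldha, the muscle-type lactate dehydrogenase, was at 1018, 1022, 1198 and 1097 TPM in intact and 668, 719.8, 733 and 752 TPM in deficient libraries (-0.59, SE 0.06, adjusted p = 0.00027). Pfkl, the liver isoform of phosphofructokinase, rose from 22.3 ± 1.74 to 34.5 ± 3.96 TPM (0.61, adjusted p = 0.00115, or 0.0601 with that block), and Eno2, the neuronal enolase, from 1.29 ± 0.261 to 3.47 ± 0.509 TPM (0.96, adjusted p = 0.000321). Lysosome and autophagy genes had 5 higher and 7 lower of 29, near the shares of all genes, and 3 of each remained with the block, with Gabarapl1 (-0.84) and Sqstm1 lower and Hexa (1.13) higher.

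The remaining lists were short, and their counts are to be read beside the 19.3% higher and 21.4% lower among all genes. Except for primitive endoderm genes, fewer calls remained with the line as a correlated block. Of 13 hypoxia targets, 4 were higher and 3 lower (P4ha2, 1.33, Egln1, 0.60, and Mxi1, -0.58), and 2 higher and 1 lower remained with the block. Mxi1, on chromosome 19, lost its call when chromosomes were centred (adjusted p = 0.077). Of 17 ERK targets, 2 were higher and 4 lower (Spry2 above; Spry1, -0.63; Ier3, -0.61), near the shares of all genes, and 1 of each remained with the block, under which Ier3 lost its call (adjusted p = 0.229). Of 11 Wnt targets, 2 were lower and 0 higher (Znrf3, -0.30; Ccnd1, -0.23), and both calls were lost with the block (adjusted p = 0.139 and 0.0772). Of 14 ribosomal protein genes chosen for their paralogs, 6 were lower and 0 higher, and 4 falls remained with the block. Among them were Rpl22l1 (-0.70) and X-linked Rpl39 (-0.61), which lost its call when chromosomes were centred (adjusted p = 0.0767). Of 12 interferon and antigen presentation genes, 3 were higher and 2 lower, and 1 higher and 2 lower remained with the block. Bst2, an antiviral tether, fell by 1.05 and Tap1 rose by 0.69, whereas H2-D1 (0.71) lost its call with the block (adjusted p = 0.083). Of 7 primitive endoderm genes, 2 were higher and 1 lower (Hnf4a, 1.04, Lama1, 0.41, and Dab2, -0.50), and these remained with the block. Dab2, on chromosome 15, was at 0.149 to 0.826 TPM in the 8 libraries and reached the filter through the primed ones (1.83 and 2.02 TPM). Of 7 fibroblast genes, 2 were higher (Pdgfrb and Col1a1) and 1 lower, and the fall remained with the block. Pdgfrb (0.354 to 0.394 TPM in intact, 0.992 to 1.57 TPM in deficient libraries) reached the filter through the deficient libraries alone. Its direction was thus fixed by the filter, and nothing is read from its call, the only rise that remained with the block. Col1a1 (0.30) was under 1 TPM in each of the 8 libraries and lost its call with the block. None of the 16 listed 2-cell-like genes in the tables was high enough to be tested. In each list with a count of 0 in 1 direction, that count was also 0 at an unadjusted p under 0.05 in limma.

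Genes that changed alike in direction did not always change alike in size. Of the 3867, 1185 (30.6%) were also called in the interaction, which is the change in GKO less the change in DKO and called 4499 of all genes (37.3%), 2173 positive (18.0%) and 2326 negative (19.3%). Of these, 701 changed more in GKO and 484 more in DKO. Rpl39l, a ribosomal protein paralog of the testis, had the largest such difference among genes that fell. It was at 51.0, 53.4, 45.9 and 44.7 TPM in intact libraries, 1.72 and 2.42 TPM in GKO and 23.5 and 21.7 TPM in DKO (-4.12 and -0.98, interaction -3.15, adjusted p = 1.68e-05). The other 3 genes with the largest interactions did not change alike. Tex13b was at 17.8 TPM or more in GKO and under 1 TPM in the other 6 libraries. Ly6a was at 11.5 and 9.91 TPM in GKO, 29.0 to 44.4 TPM in intact libraries, and 75.8 and 80.8 TPM in DKO. Spint5 was at 0.760 and 0.385 TPM in GKO, 4.48 to 8.51 TPM in intact libraries, and 12.8 and 14.8 TPM in DKO.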

How the data were processed

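Bulk RNA of 5 ESC lines was sequenced, with 2 libraries per line. The authors trimmed the reads, mapped them by STAR, ran RSEM and deposited TPM per protein-coding gene and library. The methods name GRCm39, and the submitters' processing notes name Trim Galore 0.6.6, STAR 2.7.9a, RSEM 1.3.3 and GRCm38, so the build is uncertain. The labels name an Illumina stranded kit and the methods an MGI kit. Each table held 21853 rows, of which 52 share a symbol and 27 read as dates. All columns of per-sample values were used (0 left out).

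Tests used log2(TPM + 1), a scale on which changes of low genes come out too small. Genes that reached 1 TPM in 2 or more of the 10 libraries (12060) entered limma 3.58.1 (R 4.3.3) with an intensity trend and Benjamini-Hochberg adjustment at 0.05. GKO and DKO were set against naïve and AKO as groups of 4, and a fit with a mean per line gave GKO minus naïve, DKO minus AKO and their difference. Of the tested genes, 771 were under 1 TPM in all 8 libraries. The threshold fell between adjusted p values of 0.04997 and 0.05003. Where a gene is at 0 in every intact library no fold is given. The procedure was tested on simulated data in which the lines of a group did not differ. That run therefore cannot show how differences between lines affect the calls.

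Named genes were the 15 largest rises and 15 largest falls changed alike, ranked by the smaller change, at 5 TPM or more in the higher group and without overlap; the 3 targets; up to 3 members per list with the largest called change, and markers that the study names; and the 4 largest interactions. A few of the genes so selected are counted but not reported here. The members, lists and rules were chosen with earlier results of these data known. Gene positions come from GRCm39 by symbol, promoters from RefSeq. Alternatives were another pseudocount, other filters, scalings and fits, a minimum change of 1, chromosome centring, and leaving out chromosomes or each library. Counts were summarized with Python 3.11.15 and pandas 2.3.3.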

Additional observations from a re-analysis of the deposited data

Results flagged for a closer look

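Changes that differed between the AMPK backgrounds among the named genes are given as the change in GKO minus naïve less the change in DKO minus AKO, each with an adjusted p under 0.05 for the interaction in limma. The 4 with the largest differences were Tex13b (4.23), Rpl39l (-3.15), Ly6a (-3.14) and Spint5 (-2.91). Among rises, the change was larger with AMPK in St14 (0.72), Clu (1.13), P4ha2 (0.62), Egln1 (0.66) and Pdgfrb (0.32). It was larger in the AMPK knockout background in Ddx3y (-1.35), Stmn3 (-0.45), Epp13 (-0.62), Trim35 (-0.22), Spry2 (-0.28), Cpt1c (-0.80), Acaa2 (-0.36), Dppa3 (-0.87), Uty (-1.18), Tet2 (-0.36), Perp (-0.60), Hexa (-1.45), Tap1 (-0.50), Itgb5 (-1.23), Nid1 (-0.39) and Cldn6 (-0.73). Among falls, the change was larger with AMPK in Magea4 (-1.09), Xlr3a (-1.04), Efhc2 (-0.95), Pramel6 (-1.06), Pnma5 (-0.72), Gm13128 (-1.07), Xlr3b (-1.05), Xlr4a (-1.03), Nhlrc1 (-0.68), Sox11 (-0.38), Uba1 (-0.25), Kdm6a (-0.25), Rpl39 (-0.29) and Gstm1 (-0.25). It was larger in the AMPK knockout background in 1700013H16Rik (0.44), Smoc1 (0.40), Tex19.1 (0.28), Scd2 (0.65), Me1 (0.37), Ebp (0.23), Lefty2 (0.25), Mest (0.36), Chac1 (0.65), Psat1 (0.47) and Ccnd1 (0.17). For Ddx3y and Uty, listed at 0 in all intact libraries, the value is the difference between GKO and DKO levels on the log2(TPM + 1) scale.

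Single libraries stood apart from the other 3 of their group, by Dixon's 95% limit for 4 samples, in 6 of 238 groups of 4 tested over 119 named genes, and chance alone marks about 1 group in 20. In GYS1-deficient libraries these were Eif2s3y at 41.5 TPM in GKO replicate 1, Prkaa2 at 3.10 TPM in DKO replicate 2, Krt8 at 10.4 TPM and Phlda3 at 63.2 TPM in DKO replicate 1, and H2-D1 at 5.57 TPM in GKO replicate 1. In GYS1-intact libraries it was Prkaa2 at 2.71 TPM in AKO replicate 1.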

How the results depend on the processing

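The number of genes called in the comparison of 4 against 4 (4906) lay between 3503 and 7112 under other pseudocounts, filters, scalings and fits of libraries, and its direction split stayed between 37.9% and 55.8% higher (47.5% as reported). It fell to 2308 with the line as a correlated block, to 1 with line means, where 2 lines face 2, and to 252 with a minimum log2 change of 1. That minimum left 435 genes in GKO against naïve, 378 in DKO against AKO, 131 changed alike and 357 in the interaction. Leaving out 1 library gave 3890 to 5008 genes for 4 against 4, 5960 to 7374 for GKO against naïve, 5571 to 6573 for DKO against AKO, 3149 to 3527 changed alike and 3363 to 4096 for the interaction. Replicate numbers did not pair the libraries, since the deviations of same-numbered libraries correlated between -0.12 and 0.05. With the replicate number as a block, 4279 genes were called. The 119 named genes tested include some that were not called in the comparison of 4 against 4. With line means 105 lost their call, and only Eif2s3y, whose direction was fixed by the filter, kept it. The call was lost by 16 with the correlated block and by 10 with each chromosome centred on its median. The sign turned for Uty when chromosomes were centred (-0.79), for Zfp42 (0.033) and Pou5f1 (0.11) under quantile normalization, for Zfp42 under median-ratio scaling (0.00056), and for Ly6a without GKO replicate 1 (0.16) or 2 (0.22), within a range of -0.75 to 0.22 when 1 library was left out. Nanog lost its call under 13 alternatives, Egln1 under 12, Epcam and Col1a1 under 11, Cldn6 under 10 and Evx1 under 8. The cause was not tested. Without counts, depth sets no limit that can be stated here.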
